A study of Homo sapiens with 4 samples.

Results

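The 38 genes described here supply amino acids and load them onto tRNA. They comprise 19 cytosolic aminoacyl-tRNA synthetases, 10 enzymes of amino acid synthesis and one-carbon metabolism, 8 amino acid transporters, and CEBPB, a transcription factor that is both a target and a partner of the amino acid response. The genes were taken from a fixed list of names, with no rule on their values, though the list was chosen with earlier results of these data known. Each was measured by its brightest probe set over the 4 arrays of the experiment. Of the 38 genes, 35 were measured among 9193 genes in all: 16 synthetases, 10 enzymes, 8 transporters and CEBPB. FARSB had no probe set in the annotation used here, and the probe sets of MARS1 and QARS1 were annotated to several genes, so that these 3 synthetases were not analysed here.

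The experiment used LAPC4 cells, a human prostate cancer cell line that responds to androgen. Total RNA (6 µg per sample by the labels) was taken after 72 h and hybridised to 4 Affymetrix arrays, 1 per pairing of vector and serum. The combined treatment was a lentiviral shRNA against both β-TrCP genes (BTRC and FBXW11, substrate receptors of an SCF ubiquitin ligase) together with androgen ablation in 10% charcoal stripped serum (CSS). The other groups were β-TrCP shRNA in 10% fetal calf serum (FCS) with 100 pM methyltrienolone, a synthetic androgen, then control cells in CSS, and control cells in FCS with the same androgen. The control cells are infected with a GFP vector in the labels, whereas the study's text also describes cells of the shRNA vector left without doxycycline, so that differences called shRNA here may include the vector or doxycycline, which cannot be told apart. The serum comparison likewise joins the stripping of the serum with the absence of the added androgen, and charcoal removes more than steroids. The labels name no clone, and each condition is 1 array.

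A tRNA synthetase joins 1 amino acid to its tRNA, which is the step that links the genetic code to protein synthesis. When an uncharged tRNA accumulates or protein folding fails, eIF2α kinases slow translation and raise the translation of ATF4, a transcription factor. ATF4 with its partners induces many synthetases, the serine, asparagine and proline enzymes, and transporters, so that most genes described here are known as targets of 1 program. Androgen is also known to influence amino acid uptake in prostate cells.

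ATF4 and C/EBP factors bind together at the C/EBP-ATF response element, whose core was searched as TGATGNAA on both strands in the 250 bases before 1 annotated start of each gene (RefSeq, GRCh38.p14). For a gene with several annotated starts the one listed first was used, which for some members, ASNS and SLC3A2 among them, lies inside the gene, downstream of another start. It was the only motif searched. Of the 38 genes, 31 were in the promoter table (LARS1, VARS1, YARS1, PSPH, SHMT2, PYCR1 and SLC7A11 were not matched), and 3 of these (9.68%) held the core, against 870 of 27305 promoters (3.19%). A match of these letters is a description of the sequence and not a site of binding. The promoters of the 3 genes with a match are shown because ASNS is a well studied gene with this element. Capitals mark the match, which reads on the reverse strand in AARS1 and IARS1. AARS1 lies at chr16:70289507-70289756, IARS1 at chr9:92293698-92293947 and ASNS at chr7:97872409-97872658, each on the minus strand, and the matches begin 187, 13 and 68 bases before that start.
AARS1: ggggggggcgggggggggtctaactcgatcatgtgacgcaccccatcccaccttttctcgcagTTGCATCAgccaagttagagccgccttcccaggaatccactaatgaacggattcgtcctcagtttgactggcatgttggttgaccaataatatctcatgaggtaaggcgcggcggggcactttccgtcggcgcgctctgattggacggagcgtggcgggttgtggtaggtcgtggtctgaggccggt
IARS1: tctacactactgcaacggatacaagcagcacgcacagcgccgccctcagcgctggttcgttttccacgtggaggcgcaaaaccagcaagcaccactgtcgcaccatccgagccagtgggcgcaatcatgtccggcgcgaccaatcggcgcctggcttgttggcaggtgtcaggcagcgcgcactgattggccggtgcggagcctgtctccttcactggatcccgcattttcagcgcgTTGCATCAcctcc
ASNS: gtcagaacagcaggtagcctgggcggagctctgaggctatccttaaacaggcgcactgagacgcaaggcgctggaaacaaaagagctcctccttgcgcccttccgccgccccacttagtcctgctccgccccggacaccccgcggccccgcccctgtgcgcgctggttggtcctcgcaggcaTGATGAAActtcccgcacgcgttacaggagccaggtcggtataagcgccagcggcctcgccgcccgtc
Beside these sequences, ASNS changed by 0.72, AARS1 by 0.38 and IARS1 by 0.04 on the log2 scale with CSS in control cells. The median of these 3 genes was 0.38. The 25 measured members in the promoter table without a match had a median of 0.21, with 20 higher. With shRNA in FCS, all 3 genes with a match were slightly lower (-0.15 to -0.02), each by less than the local spread defined below. Of the 25 without a match 13 were higher there (median 0.003), so that these 3 values set no direction.

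FBXW11 had a normalized log2 signal of 4.68 on the shRNA array in CSS and 5.02 on the shRNA array in FCS, against 8.19 in control cells in CSS and 8.02 in control cells in FCS. BTRC was dim, at the floor of 4.32 on both shRNA arrays, against 4.64 in control cells in CSS and 4.50 in control cells in FCS. KLK3 and KLK2, which androgen induces in prostate cells, were higher in control cells in CSS (9.74 and 9.00) than in control cells in FCS (9.00 and 8.30), and TMPRSS2, another androgen-induced gene, was lower (7.73 against 8.22). In shRNA cells KLK3 was higher in CSS than in FCS (8.37 against 8.02), and KLK2 and TMPRSS2 were lower (6.59 against 7.07 and 7.52 against 7.66). These genes thus gave no common order by serum, the order of KLK3 goes against what the labels would give in both vectors, and the labels are used as they stand. The combined-treatment array was unlike the rest: its Pearson correlation with the others over probe sets was 0.925 to 0.927, against 0.987 and 0.989 for the comparisons that leave it out. Its deposited values had an interquartile range of 2.07, against 2.69 to 2.74. Of 7 fibroblast and 7 leukocyte markers, 5 each were measured, with summed signals of 156 and 163 on that array, against 114 to 118 and 106 to 107 on the other 3. COL3A1, LUM, PTPRC, CD3E, LYZ, HLA-DRA and all 4 endothelial markers were at the floor or not kept on every array. The part of these differences in the results was not tested.

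Signals are given as log2 values after quantile normalization, with a floor at a signal of 20, which is log2 4.32. A log2 change of 1 is a 2-fold change. Since there is 1 array per condition, a change between 2 arrays has no replicate check and no p-value. As a yardstick, the local spread is the robust SD of the log2 changes among the 1000 probe sets nearest in mean signal, and a change is called beyond it when it is larger. For the members it was 0.16 to 0.33 for CSS in control cells and 0.16 to 0.35 for shRNA in FCS. In comparisons with the combined array it reached 0.84 to 0.86 for dim members, and it was 0.17 to 0.40 for the 27 members with a mean log2 signal of at least 8.

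The members were bright genes. Their median mean log2 signal was 9.43, against 5.88 over all genes, and 27 of the 35 averaged at least 8. They ran from CTH at 4.64, the only member at the floor on an array, to GARS1 at 10.77. Of the 35 members, 5 were highest on the array of the combined treatment, 6 with shRNA in FCS, 22 in control cells in CSS and 2 in control cells in FCS. Levels of different genes are probe set signals and are not compared as amounts of RNA.

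**Figure D1:**
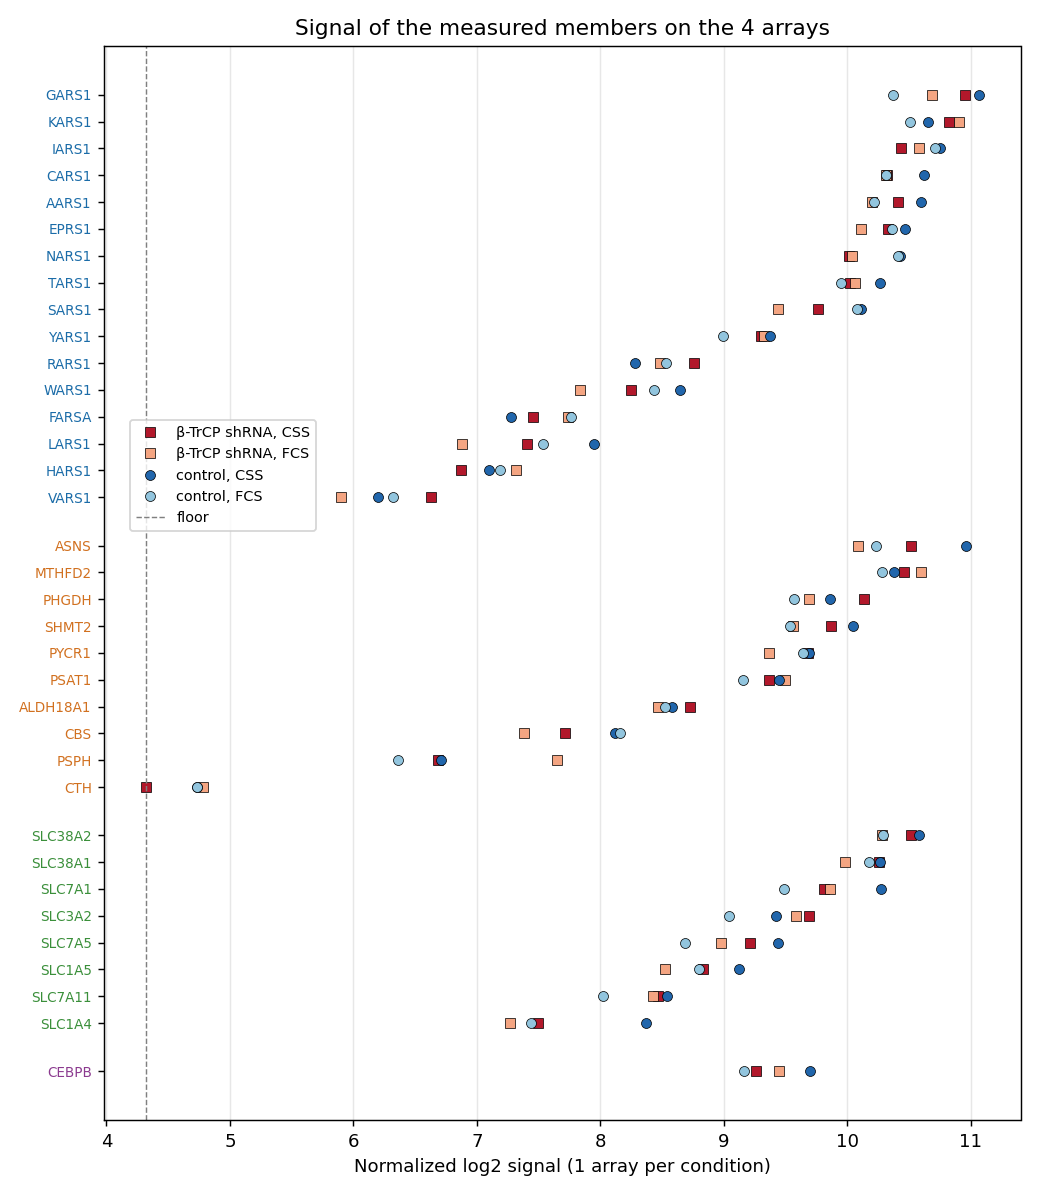
Normalized log2 signal (x axis) of each of the 35 measured members (rows, coloured by sub-group) on the 4 arrays, squares for β-TrCP shRNA and circles for control cells, with darker symbols for CSS. In 22 of the 35 rows the dark circle of control cells in CSS lies farthest to the right.

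Among the cytosolic synthetases, GARS1, which charges glycine tRNA both in the cytosol and in mitochondria, differed most with CSS in control cells. Its log2 signal was 10.95 with the combined treatment, 10.69 with shRNA in FCS, 11.06 in control cells in CSS and 10.37 in control cells in FCS. Each of the 3 treated arrays was above the control in FCS, and CSS was higher than FCS in both vectors, by 0.27 in shRNA cells and 0.69 in control cells. KARS1, the lysyl enzyme, was instead set apart by the vector: 10.82 with the combined treatment and 10.90 with shRNA in FCS, against 10.65 and 10.50 in control cells in CSS and in FCS. Both shRNA arrays lay above both control arrays, by 0.17 in CSS and 0.40 in FCS.

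A second set of synthetases lay on the other side of the vector comparison. SARS1, the seryl enzyme, had a log2 signal of 9.76 with the combined treatment, 9.44 with shRNA in FCS, 10.11 in control cells in CSS and 10.07 in control cells in FCS. NARS1, the asparaginyl enzyme, showed 10.01 with the combined treatment and 10.04 with shRNA in FCS, against 10.42 in control cells in CSS and 10.41 in FCS. WARS1, the tryptophanyl enzyme and also an interferon-induced gene, showed 8.25 and 7.83 on the shRNA arrays in CSS and FCS, against 8.64 and 8.43 in control cells. In SARS1, NARS1 and WARS1 both shRNA arrays were below both control arrays. LARS1, the leucyl enzyme, which also takes part in leucine sensing by mTORC1, followed the same order with a larger serum difference: 7.40 with the combined treatment and 6.88 with shRNA in FCS, against 7.95 and 7.53 in control cells in CSS and in FCS. The shRNA differences in FCS were -0.63 for SARS1, -0.37 for NARS1, -0.60 for WARS1 and -0.66 for LARS1, each beyond its local spread.

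The remaining synthetases differed less or without a common order. FARSA, the α subunit of the phenylalanyl enzyme, was the only member lower beyond its local spread with CSS in control cells, at -0.48, with 7.46 under the combined treatment, 7.74 with shRNA in FCS, 7.27 in control cells in CSS and 7.76 in FCS. RARS1, the arginyl enzyme, was 8.76 with the combined treatment, 8.48 with shRNA in FCS, 8.28 in control cells in CSS and 8.53 in control cells in FCS. VARS1, the valyl enzyme, was dim, with 6.63 under the combined treatment, 5.90 with shRNA in FCS, 6.20 in control cells in CSS and 6.32 in FCS. Its serum difference in shRNA cells, 0.73, was within the local spread of 0.78 at that signal. HARS1, the histidyl enzyme, was 6.87 with the combined treatment, 7.32 with shRNA in FCS, 7.10 in control cells in CSS and 7.19 in FCS. AARS1, CARS1, EPRS1, IARS1, TARS1 and YARS1, for alanine, cysteine, glutamate with proline, isoleucine, threonine and tyrosine, averaged between 9.25 and 10.62. With CSS in control cells these 6 changed by 0.04 to 0.38.

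Of the enzymes, ASNS, which makes asparagine from aspartate and glutamine, was 10.52 with the combined treatment, 10.08 with shRNA in FCS, 10.96 in control cells in CSS and 10.23 in control cells in FCS. It was higher in CSS than in FCS in both vectors, by 0.43 in shRNA cells and 0.72 in control cells, both beyond the local spread of 0.20. The serine pathway runs from PHGDH, its first enzyme, through PSAT1 to PSPH, and SHMT2 and MTHFD2 then pass the carbon of serine into the mitochondrial folate cycle. PHGDH was 10.13 with the combined treatment, 9.69 with shRNA in FCS, 9.86 in control cells in CSS and 9.57 in control cells in FCS, so that every treated array was above the control in FCS. SHMT2 was separated by serum: 9.87 in shRNA cells in CSS against 9.56 in FCS, and 10.04 in control cells in CSS against 9.53 in FCS. PSAT1 was 9.36 with the combined treatment, 9.49 with shRNA in FCS, 9.45 in control cells in CSS and 9.16 in FCS. MTHFD2 was 0.10 higher with CSS in control cells, within its local spread, and 0.32 higher with shRNA in FCS, beyond it.

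PSPH, phosphoserine phosphatase, gave the largest change among the members. Its log2 signal was 6.68 with the combined treatment, 7.65 with shRNA in FCS, 6.71 in control cells in CSS and 6.36 in control cells in FCS. The array of shRNA in FCS was high and the other 3 lay within 0.35 of each other. The change of 1.29 with shRNA in FCS (2.45-fold) was the only one among the members past 2-fold in any of the 5 comparisons. Its second probe set gave 0.99. PSPH has a pseudogene of similar sequence, PSPHP1, and whether it shares signal with these probe sets was not tested.

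The proline enzymes PYCR1 and ALDH18A1 differed from the control in FCS by at most 0.27 on any array. CBS and CTH, which carry sulphur from homocysteine to cysteine, differed in level. CBS was 7.71 with the combined treatment and 7.38 with shRNA in FCS, against 8.12 in control cells in CSS and 8.16 in control cells in FCS, and both shRNA arrays lay below both control arrays. Its difference with shRNA in FCS was -0.78, the lowest of all members. CTH was near background: at the floor with the combined treatment, 4.78 with shRNA in FCS, and 4.74 in control cells in both sera.

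All 8 transporters were higher with CSS in control cells. SLC1A4, a carrier of alanine, serine and cysteine, was 7.49 with the combined treatment, 7.27 with shRNA in FCS, 8.37 in control cells in CSS and 7.44 in control cells in FCS. Only the control array in CSS was high, and the change of 0.93 was the largest of the members in that comparison. SLC7A1, the cationic amino acid transporter for arginine and lysine, was 9.81 with the combined treatment, 9.86 with shRNA in FCS, 10.27 in control cells in CSS and 9.49 in control cells in FCS. SLC7A5, the light chain of the large neutral amino acid exchanger LAT1, was 9.21 with the combined treatment, 8.98 with shRNA in FCS, 9.44 in control cells in CSS and 8.68 in FCS. In SLC7A1 and SLC7A5 the control array in CSS was highest and the control array in FCS lowest.

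SLC3A2, the heavy chain that pairs with SLC7A5 and SLC7A11, did not share that order. It was 9.69 with the combined treatment and 9.58 with shRNA in FCS, against 9.42 in control cells in CSS and 9.04 in FCS, so that both shRNA arrays were above both control arrays. SLC7A11, the cystine and glutamate exchanger, was 8.47 with the combined treatment, 8.43 with shRNA in FCS, 8.54 in control cells in CSS and 8.02 in FCS. The 3 treated arrays lay close together, 0.41 to 0.52 above the control in FCS. SLC1A5, which carries glutamine, was 8.83 in shRNA cells in CSS against 8.52 in FCS, and 9.13 in control cells in CSS against 8.80 in FCS, a difference of 0.31 and 0.33 in the pairs. SLC38A1 and SLC38A2, sodium-coupled neutral amino acid transporters, were the most even. SLC38A1 was 10.26 with the combined treatment, 9.98 with shRNA in FCS, 10.26 in control cells in CSS and 10.17 in FCS. SLC38A2 was 10.51 with the combined treatment, 10.28 with shRNA in FCS, 10.58 in control cells in CSS and 10.29 in FCS, which is 0.23 and 0.30 higher in CSS in shRNA and control cells.

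CEBPB was 9.26 with the combined treatment, 9.44 with shRNA in FCS, 9.69 in control cells in CSS and 9.16 in control cells in FCS. It was 0.18 lower with CSS in shRNA cells, within its local spread, and 0.53 higher with CSS in control cells, beyond it.

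The first comparison set CSS against FCS with the added androgen, in control cells without the shRNA. With CSS in control cells 29 of the 35 members were higher, against 53.2% of 7994 genes, with a median change of 0.30, against 0.02 over all genes. Beyond the local spread 18 members were higher, where the background was 16.8% of genes, and 1 was lower, where it was 13.9%. By sub-group, all 8 transporters (median 0.45), 8 of 10 enzymes (0.19) and 12 of 16 synthetases (0.13) were higher. No member passed 2-fold, against 0.300% of genes in either direction. At 1.5-fold higher stood 5 members, SLC1A4, SLC7A1, SLC7A5, ASNS and GARS1, against 2.45% of genes. Of the 27 members with a mean log2 signal of at least 8, 26 were higher, against 52.1% of 1536 genes as bright, the exception being RARS1. NARS1, IARS1 and SARS1, higher here by 0.02 to 0.04, were below 0 on the deposited values and with a common median. Under each of these alternatives 26 of the 35 members were higher. The synthetase median was then 0.07 and 0.05, against 0.03 and 0.003 over all genes, and the transporter median 0.41 and 0.38.

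With shRNA in FCS the members had no common direction: 17 were higher and 18 lower, against 49.9% of 7991 genes higher, and the median was -0.01. Beyond the local spread 9 were higher and 7 lower, against 15.8% and 16.7% of genes. Of those 7 lower genes, 6 were synthetases. PSPH was past 2-fold, as were 1.20% of genes in either direction. The higher side was led after PSPH by SLC3A2 (0.54), SLC7A11 (0.41), KARS1 (0.40) and SLC7A1 (0.37).

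With the combined treatment against the control in FCS, 25 members were higher, against 52.4% of 8697 genes, with a median of 0.17 against 0.03 over all genes. All 8 transporters (median 0.28) and 8 of 10 enzymes (0.20) were higher, and the synthetases were split 8 and 8 (-0.01). No member was past 2-fold, against 14.8% of all genes but 1.82% of the 1536 genes as bright as most members. SLC3A2 led with 0.64, followed by GARS1 (0.58), PHGDH (0.57) and SLC7A5 (0.53). This comparison depended on normalization. On the values as deposited the median was -0.16 for the members and for all genes, 10 members were higher, and the medians were -0.19 for the synthetases, -0.12 for the enzymes and 0.02 for the transporters. With a common median the members' median was 0.12, against 0.11 over all genes.

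In CSS, β-TrCP shRNA cells had lower signals than control cells in 27 of the 35 members and higher in 8, against 50.5% of 8730 genes higher, with a median of -0.17 against 0.01 over all genes. SLC1A4 (-0.88), LARS1 (-0.55), SLC7A1 (-0.46), ASNS (-0.44) and CEBPB (-0.43) were furthest down, none past 2-fold, against 14.5% of all genes but 0.911% of genes as bright as most members. Of the 35 members, 13 were lower beyond the local spread, against 14.5% of genes. On the deposited values the median was -0.38, against -0.20 over all genes, so that the distance from all genes was similar (-0.18 in both).

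CSS against FCS within shRNA cells gave 22 members higher, against 52.0% of 8727 genes, and a median of 0.22, against 0.03 over all genes. Beyond the local spread 12 were higher, against 15.7% of genes, and 1 was lower, PSPH at -0.96, against 14.1%. No member was past 2-fold, against 14.5% of all genes but 0.716% of genes as bright as most members. On the deposited values 12 members were higher and the median was -0.13, which was above the median over all genes of -0.19, and with a common median it was 0.14, against 0.07 over all genes. The transporters had a median of 0.23 after quantile normalization and of -0.10 as deposited.

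**Figure D2:**
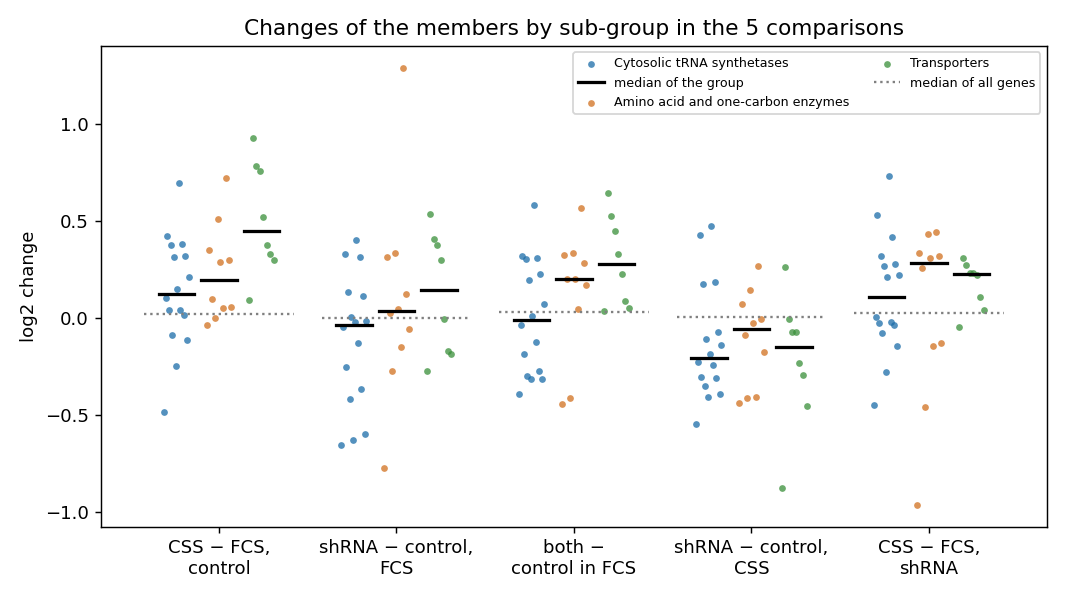
Log2 change (y axis) of each synthetase, enzyme and transporter (points) in the 5 comparisons (x axis), with the median of the sub-group (black bar) and of all genes (dotted line). All 8 transporters lie above 0 for CSS in control cells and for the combined treatment, and the last 3 comparisons use the array that stood apart.

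The serum difference in shRNA cells and that in control cells share no array. CSS was higher in both for 19 of the 35 members (54.3%), against 29.0% of 7849 genes, and lower in both for 3 (8.57%), against 28.3%: FARSA, HARS1 and CTH. By their brightest probe sets the transporters held 7 of the 19, all but SLC7A1, which was 0.05 lower with CSS in shRNA cells. In shRNA cells 2 of the 8 transporters were higher beyond the local spread. The probe sets of SLC1A4, SLC7A1 and SLC7A11 disagreed in direction there. SLC1A4 gave 0.22, -0.22, 0.53 and 0.57, and the second brightest probe set of SLC7A1 gave 0.29, so that the count depends on the probe set chosen. On the deposited values 10 members were higher in both, against 17.8% of genes, with 2 of the 8 transporters, and 18 were, against 26.1%, when the arrays were only set to a common median. The serum change in shRNA cells minus that in control cells had a median of -0.19 over the 34 members above the floor on all arrays, against -0.03 over all genes, and was below 0 for 7 of 8 transporters (median -0.38), a difference that was not tested. As deposited the members' median was -0.34, against -0.37 over all genes, and with a common median it was -0.068, against -0.10, so that the members lay below all genes after quantile normalization and slightly above them under both of these alternatives.

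**Figure D3:**
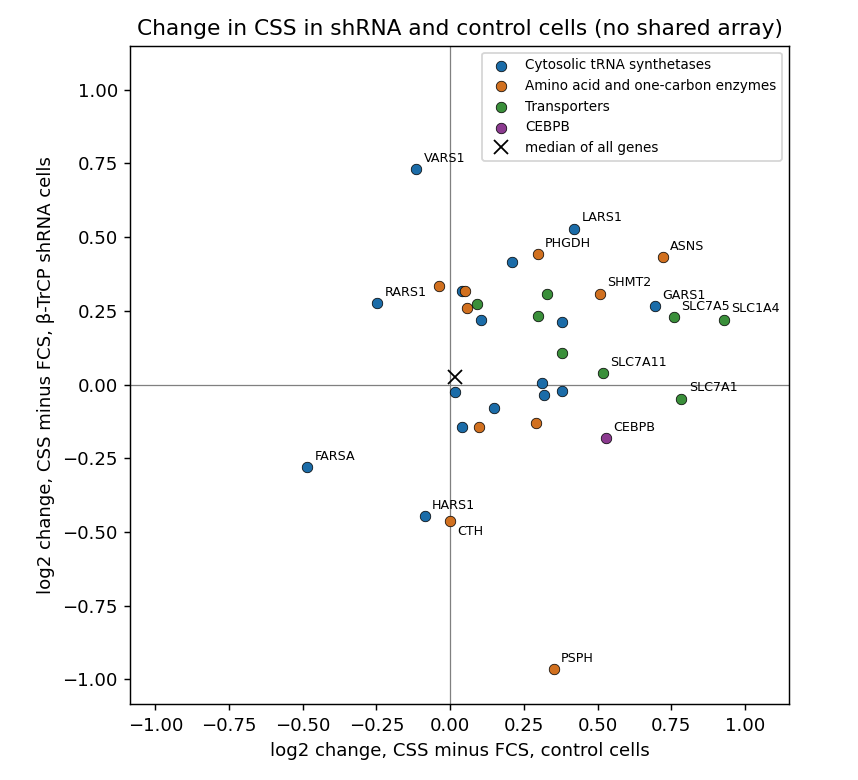
Log2 change in CSS against FCS in β-TrCP shRNA cells (y axis) and in control cells (x axis) for the 35 members, coloured by sub-group, with the median of all genes as a cross. The upper right area holds 19 members, including 7 of the 8 transporters, and PSPH lies apart at -0.96 in shRNA cells.

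The shRNA differences in CSS and in FCS also share no array. Signals were lower with the shRNA in both sera for 14 of 35 members (40.0%), against 30.6% of 7846 genes, and higher in both for 4 (11.4%), against 26.2%: KARS1, PHGDH, MTHFD2 and SLC3A2. The 14 were 7 synthetases (AARS1, EPRS1, IARS1, LARS1, NARS1, SARS1 and WARS1), 3 enzymes (ASNS, PYCR1 and CBS) and 4 transporters (SLC1A4, SLC1A5, SLC38A1 and SLC38A2). Some were near 0 in 1 serum: SLC38A1 (-0.0051) and PYCR1 (-0.0055) in CSS, and SLC38A2 (-0.0066) and AARS1 (-0.018) in FCS. EPRS1 and SLC1A4 each had a dimmer probe set that was higher with the shRNA in CSS, by 0.87 and 0.36. As deposited 18 were lower in both sera, against 37.5% of genes, and with a common median 12 were, against 28.6%. Those 12 were 8 synthetases, 2 enzymes and 2 transporters.

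**Figure D4:**
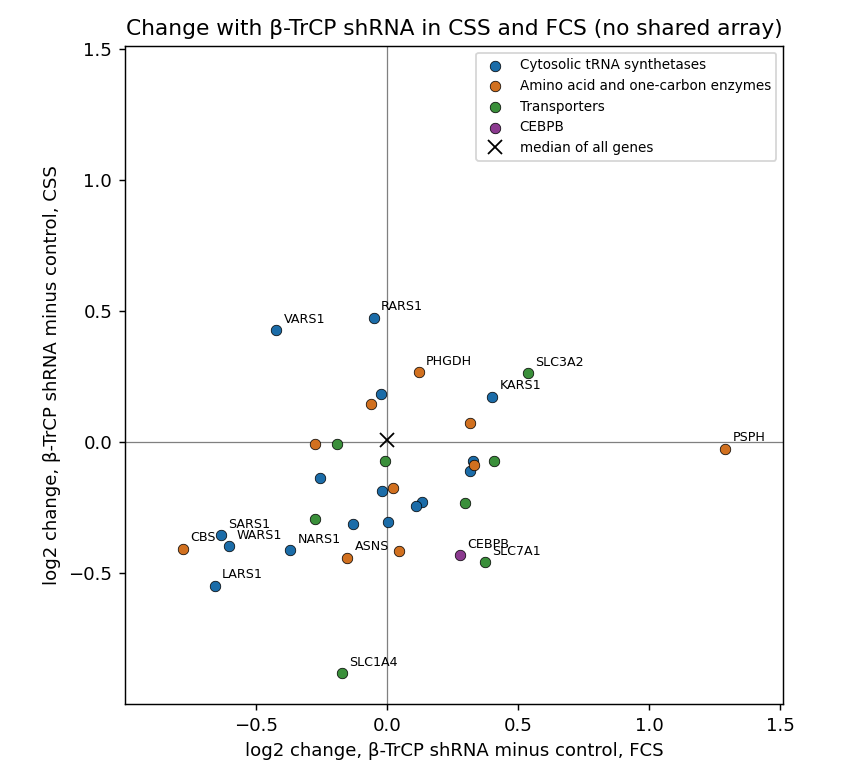
Log2 change with β-TrCP shRNA against control in CSS (y axis) and in FCS (x axis) for the 35 members, coloured by sub-group, with the median of all genes as a cross. The lower left area holds 14 members, among them LARS1, SARS1, WARS1, NARS1 and CBS, and the upper right 4.

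Main effects over all 4 arrays were tested with limma, with serum and shRNA as additive terms, a model that has 1 residual degree of freedom, over 8855 genes with Benjamini-Hochberg adjustment. On simulated arrays with known shRNA effects this fit recovered 61% of 2-fold and 100% of 4-fold changes, with 23 false calls. That is a larger share of its calls than a threshold of 0.05 sets, so that the adjusted p-values are not held at their level. The simulated noise depended on mean signal alone and was equal on all 4 arrays. It held no array that stood apart and no departures particular to a gene, so the number of false calls on the real arrays was not tested. For serum 230 genes (2.60%) passed an adjusted p of 0.05, among them 6 members, all higher in CSS. ASNS rose by 0.58 (SE 0.09, adjusted p = 2.9e-07) and GARS1 by 0.48 (SE 0.09, adjusted p = 1.9e-05). SLC7A5 rose by 0.49 (adjusted p = 0.0051), SHMT2 by 0.41 (adjusted p = 0.0071), PHGDH by 0.37 (adjusted p = 0.020) and SLC7A1 by 0.37 (adjusted p = 0.019). For SLC7A1 this averages -0.05 in shRNA cells and 0.78 in control cells. SLC1A4 had a main effect of 0.57 with an adjusted p of 0.14.

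For the shRNA 345 genes (3.90%) passed, among them 6 members. SARS1 fell by 0.49 (SE 0.10, adjusted p = 0.00015), NARS1 by 0.39 (adjusted p = 0.0027), WARS1 by 0.50 (adjusted p = 0.049) and ASNS by 0.30 (adjusted p = 0.041). SLC3A2 rose by 0.40 (adjusted p = 0.014) and KARS1 by 0.29 (adjusted p = 0.037). CBS, at -0.59, had an adjusted p of 0.055, and PSPH, at 0.63, one of 0.40. The variance came from the trend of residual on signal alone, and without that trend limma called no gene for either factor (312 for serum and 386 for the shRNA at an unadjusted p under 0.05). On the deposited values limma called no member (2 for serum and 7 for the shRNA unadjusted), and with a common median ASNS alone passed, for serum. Without the combined array no residual degree of freedom is left, so that these tests have no value without it.

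Several probe sets measured 13 of the members. Those used for LARS1, SLC1A4 and SLC38A2 are of the type that Affymetrix marks as able to cross-hybridise. With shRNA in FCS all probe sets of all 13 agreed in direction, including the pairs for WARS1 (-0.60 and -0.41), KARS1 (0.40 and 0.52) and PSPH. With CSS in control cells 8 of the 13 agreed. In SLC1A4 the 3 brighter probe sets gave 0.93, 0.86 and 0.89 and the dimmest -0.10, and in SLC7A1 the 2 brightest gave 0.78 and 0.93 while the others lay between -0.02 and 0.15. SLC7A11 gave 0.52 and 0.50, with -0.41 in a probe set near the floor. EPRS1 gave 0.10, 0.19 and -0.85, and WARS1 0.21 and -0.11, so that their serum differences have no settled direction. For shRNA against control in CSS, 7 of 13 agreed. For CSS against FCS in shRNA cells 10 of 13 did, all but SLC1A4, SLC7A1 and SLC7A11.

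**Figure D5:**
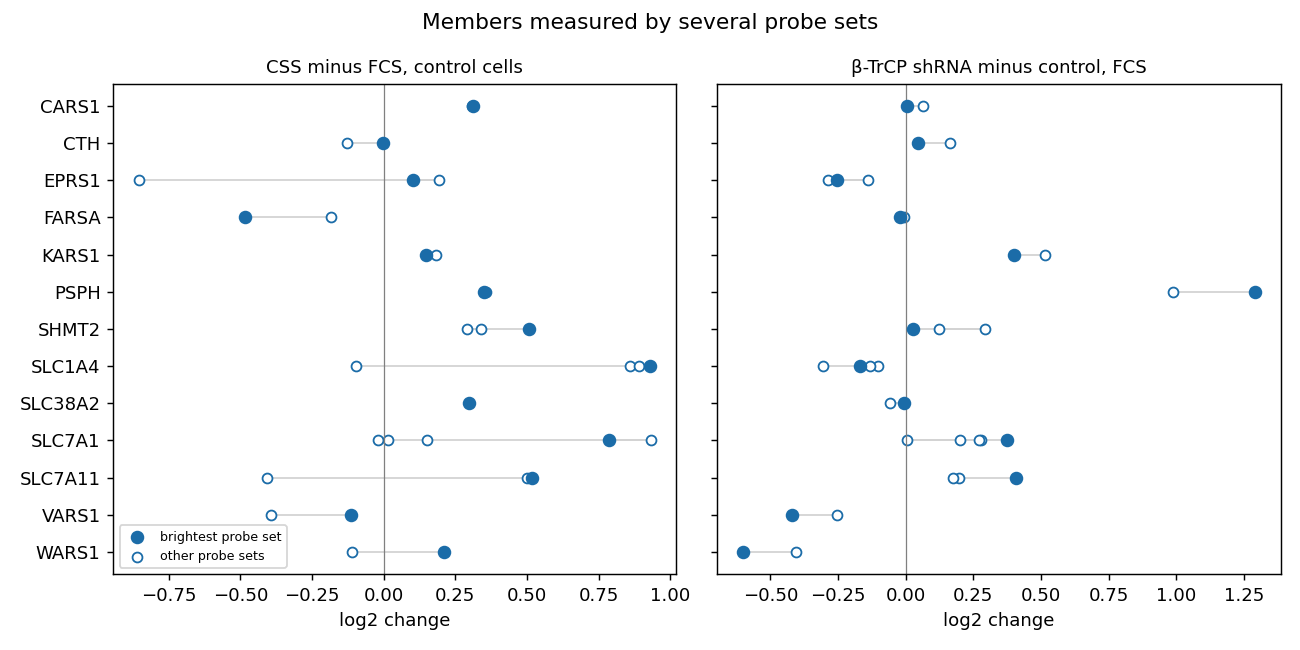
Log2 change (x axis) of every probe set of the 13 members with more than 1 probe set (rows), for CSS against FCS in control cells (left) and β-TrCP shRNA against control in FCS (right), with the brightest probe set filled. On the right each row keeps to 1 side of 0, and on the left EPRS1, SLC1A4, SLC7A1, SLC7A11 and WARS1 do not.

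Related genes outside the member list gave mixed values. Of 17 mitochondrial synthetases 9 were measured. With CSS in control cells 2 were higher and 7 lower (median -0.08), against 53.2% of 7994 genes higher. LARS2 and SARS2, the mitochondrial leucyl and seryl enzymes, differed in shRNA against control cells in CSS by 1.24 and -1.14. The local spreads there were wide, at 0.74 and 1.00. That comparison uses the combined-treatment array, on which SARS2, at 4.36, lay next to the floor of 4.32. With shRNA in FCS, LARS2 changed by 0.07 and SARS2 by -0.002. Of 5 scaffold and tRNA handling genes 2 were measured: AIMP1, a scaffold of the multisynthetase complex, and XPOT, which exports tRNA from the nucleus, changed by -0.54 and -0.10 with CSS in control cells. Of 28 other enzymes of amino acid and one-carbon metabolism 20 were measured, with 9 higher and 10 lower among 19 with a value (median -0.0038), and MTHFD1, the cytosolic folate enzyme, was -0.40. Among 14 of 26 other amino acid transporters, 7 were higher and 3 lower of the 10 with a value (median 0.06). Of 19 genes for amino acid sensing by mTORC1 13 were measured, with 7 higher and 6 lower (median 0.04).

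Of 23 other integrated stress response genes, which are sensors, factors and targets around ATF4, 19 were measured. With CSS in control cells 15 of these were higher (median 0.23), against 53.2% of 7994 genes. The largest changes were in STC2, a secreted glycoprotein (1.59), ATF3, a stress-induced factor (1.19), and DDIT4, an inhibitor of mTORC1 (1.14). With shRNA in FCS, DDIT4 (1.40) and ATF3 (1.32) were higher too, and EIF2AK3, the eIF2α kinase of the endoplasmic reticulum, was lower (-0.89). With CSS in shRNA cells 10 of these 19 genes were higher (median 0.0086), against 52.0% of 8727 genes. There STC2 changed by 0.28, ATF3 by -0.52 and DDIT4 by -0.33. ATF4 itself, chosen here as the factor that names the program, was bright and even: 11.77 with the combined treatment, 11.64 with shRNA in FCS, 11.79 in control cells in CSS and 11.62 in control cells in FCS. TRIB3, another known target, was 9.94 with the combined treatment and 9.93 with shRNA in FCS, against 10.42 in control cells in CSS and 10.63 in FCS. CHAC1, listed among the targets too, was instead lowest in control cells in FCS, at 5.60. It was 6.87 with the combined treatment, 6.88 with shRNA in FCS and 6.66 in control cells in CSS.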

How the data were processed

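RNA of 4 LAPC4 samples was measured on 4 arrays. The authors deposited log2 values of 22277 probe sets without present calls. The methods name MAS5 signals, a selection by present call and by an intensity of 20, a log2 step and quantile normalization, and the labels also name MAS5. The deposited columns do not share a distribution, so the 15678 probe sets whose signal reached 20 on 1 or more arrays were quantile normalized here, and signals were then raised to a floor of 20. Whether the deposited values are unchanged MAS5 signals was not tested.

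Of the probe sets, 19070 had 1 annotated gene, 1043 had several and 2164 had none, and 19058 were matched to RefSeq symbols. The 62 control probe sets and the probe sets without a single gene were not used. The probe set with the highest mean stood for a gene. A gene at the floor on 1 array has only a bound. The local spread is 1.48 times the median absolute deviation of log2 changes among the 1000 nearest probe sets. The number of arrays limits the precision, with 1 per condition.

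Main effects were tested with limma 3.58.1 in R 4.3.3 with a trend on mean signal. Other steps used Python 3.11.15, numpy 2.4.6, pandas 2.3.3 and matplotlib 3.10.9 and were checked on simulated data.

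The members and all lists were chosen with earlier results of these data known. Values on every array are given for members past 2-fold in a comparison and for those passing limma. They are also given for the 3 of each sub-group with the largest change in each comparison. Up to 4 genes of each other list are named, many by their changes alone. ATF4, TRIB3, CHAC1 and the 3 promoter genes were added after their values were seen. Of these, AARS1 and IARS1 are given by changes alone. Alternatives were the deposited values, a common median, a floor of 100 or none, a filter at a signal of 100 or none, averaging the probe sets of a gene, probe sets chosen on deposited values, normalization without the combined array, 1.5-fold and 3-fold thresholds, and limma without a trend.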

Additional observations from a re-analysis of the deposited data

Results flagged for a closer look

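In PSPH the effect of CSS had opposite directions in the 2 vectors: -0.96 in shRNA cells and 0.35 in control cells on the log2 scale, a difference of -1.32. Both probe sets showed it (-0.75 and 0.36 in the second). In SLC7A1 the shRNA changed the signal in opposite directions in the 2 sera, by -0.46 in CSS and 0.37 in FCS, a difference of -0.83. With 1 array per condition, neither difference was tested, and both include the array of the combined treatment.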

How the results depend on the processing

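No paired analysis was possible because each condition has 1 array and so no replicates to pair, and no array could be left out of a group of 1. The direction of the median for CSS in control cells (0.22 to 0.30 under 3 normalizations) and for shRNA against control in CSS did not turn under the alternatives run. On the deposited values, where the median over all genes moved to -0.16 for the combined treatment, -0.20 for shRNA in CSS and -0.19 for CSS in shRNA cells, the combined treatment gave a members' median of -0.16 with 10 higher and an enzyme median of -0.12, shRNA in CSS gave -0.38 with 4 higher and 2 past 2-fold, and CSS in shRNA cells gave -0.13 with 12 higher, 1 past 2-fold, and medians of -0.14, -0.16 and -0.10 for synthetases, enzymes and transporters. Above the median over all genes lay 17 of the 35 members for the combined treatment, 9 for shRNA in CSS and 20 for CSS in shRNA cells. The median serum change in shRNA cells minus that in control cells was -0.34, against -0.37 over all genes. With CSS in both vectors 10 members were higher, against 17.8% of genes, and 7 lower, against 33.6%. The split of all genes past 2-fold was 379 higher and 1094 lower as deposited (25.7% higher), against 689 and 601 (53.4%) for the combined treatment. With shRNA in CSS it was 380 and 1097 against 675 and 587, and for CSS in shRNA cells 383 and 1099 against 687 and 579. With CSS in control cells it was 19 and 10 (65.5% higher) against 13 and 11 (54.2%).

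With a common median, which moved the median over all genes to 0.11 for the combined treatment (0.12 over the members) and 0.07 for CSS in shRNA cells (0.14), 1 member was past 2-fold for shRNA in CSS and 1 for CSS in shRNA cells, and the difference between the serum changes was -0.068, against -0.10 over all genes. All genes past 2-fold were then 741 higher and 501 lower for shRNA in CSS, and 732 and 547 for CSS in shRNA cells. At 1.5-fold, 5 members passed for CSS in control cells, where 196 genes were higher and 178 lower of 7994. For shRNA in FCS 5 passed, with 256 genes higher and 267 lower of 7991. For the combined treatment 1 passed, with 1574 and 1417 of 8697 genes. For shRNA in CSS 1 passed, with 1450 and 1431 of 8730, and for CSS in shRNA cells 2, with 1515 and 1399 of 8727. At 3-fold 0 members passed for shRNA in FCS, with 19 genes higher and 3 lower. For serum, limma called 0 genes without a trend (312 at an unadjusted p under 0.05), 23 as deposited and 73 with a common median, against 230, and 0, 0 and 1 members, against 6. For the shRNA it called 0 (386 unadjusted), 43 and 161 genes, against 345, and 0, 0 and 0 members, against 6. The cause of these differences was not tested. Normalization without the combined array kept every count and median for the comparisons that do not use it within the tolerance of 1.5 times or 0.1.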
